A study of Mus musculus with 8 samples.

Results

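Immature neutrophils of the spleen were compared with immature neutrophils of the bone marrow in tumor-bearing mice, from single cells captured in droplets and read for RNA and for antibody barcodes on their surface. Cells were chosen by their measured transcripts: a cell counted as an immature neutrophil when Camp, Ngp and Ltf together made up at least 1% of its RNA molecules, counted as unique molecular identifiers (UMIs), and when it held no UMI of Csf1r, the receptor gene that marks monocytes and macrophages. The rule found 210 of 6105 spleen cells and 1888 of 5682 marrow cells. Of these, 197 and 1636 carried a single hashtag, an antibody barcode that tells pooled samples apart, so 1833 of the 20012 cells of the series entered the sums. Blood held 5 such cells and tumor 0 of 462, and neither was compared. The mice were female C57BL6/J animals that had received MOPC cells, a mouse oropharyngeal cancer line, under the skin of the flank. Both tissues mixed wild-type mice and mice of a knockout named only as Genotype_02, and neither an age nor the knocked-out gene was given in the sources used here. No hashtag was tied to a mouse or a genotype, so each of the 8 hashtags within a tissue was treated as 1 sample, the genotypes were not separated, and each p-value measures only the spread between these sums. Living cells had been sorted as Gr1-positive without NK1.1, FcRe, Ter119, B220 or CD3, or as Gr1-negative and cKit-positive, from suspensions adjusted to similar numbers of target cells. Each tissue was a single capture, and the effects of tissue and capture cannot be told apart.

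Neutrophils mature in the marrow through stages that each fill another kind of granule. Promyelocytes make the azurophil proteases, myelocytes and metamyelocytes make the specific granule proteins that the rule used, and band and segmented cells make gelatinase granule and motility proteins after they have left the cell cycle. The spleen can host granulopoiesis outside the marrow, which is best known under inflammation and in tumor-bearing animals.

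The share of the 3 granule transcripts chose the cells, so it is given as a description with no test. Its median was 8.80% of a cell's UMIs in spleen and 8.27% in marrow, and the lower quartile was 6.70% against 4.79%. The marrow cells were spread over a wider range, up to 39.0%, while no spleen cell exceeded 13.4%. Just inside the threshold, at 1 to 1.2%, lay 3 spleen and 30 marrow cells, and just outside it, at 0.8 to 1%, lay 1 and 45. The condition on Csf1r removed 34 spleen and 184 marrow cells that passed the granule threshold. These cells were 3.44% of the sorted spleen cells (exact Clopper-Pearson 95% interval 3 to 3.93) and 33.2% of the sorted marrow cells (32 to 34.5). The intervals cover counting error only, and the sort and the adjustment of cell numbers set the shares.

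**Figure D1:**
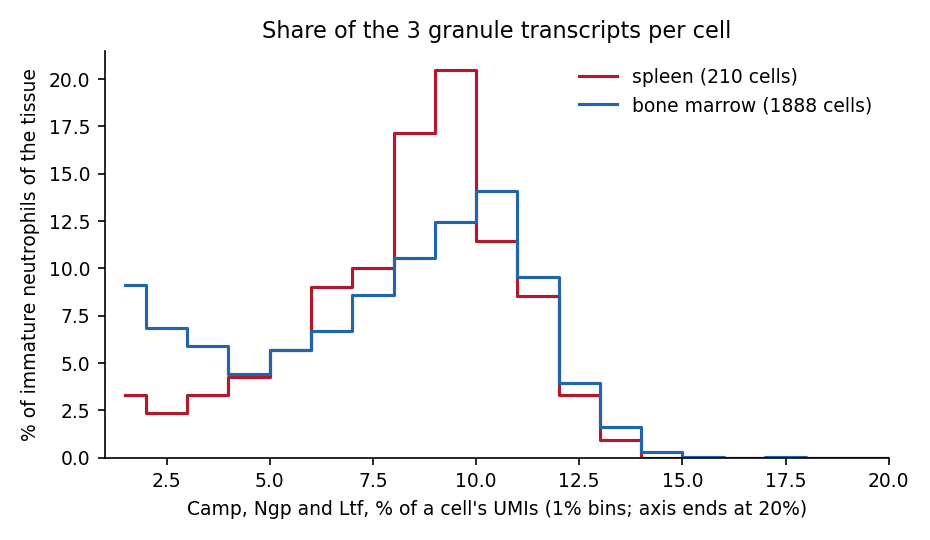
Distribution of the share of Camp, Ngp and Ltf among the UMIs of each immature neutrophil (x axis, percent, 1% bins, ending at 20%) as percent of the tissue's immature neutrophils (y axis), for 210 spleen cells (red) and 1888 marrow cells (blue). Both curves peak at similar shares, with medians of 8.80% and 8.27%, and the marrow curve holds more of its cells at low shares.

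Camp, which encodes the cathelicidin antimicrobial peptide, stood at 45209 ± 2189 CPM (UMIs of the gene scaled to a common total of all gene UMIs in the sum) in the spleen sums and 44592 ± 1994 in the marrow sums (SD, n = 8 each). Ngp, a neutrophil granule protein gene, was at 33739 ± 2580 and 31911 ± 1834 CPM, and Ltf, which encodes lactoferrin, at 8345 ± 1041 and 8253 ± 598. Of 5 markers of the stage that the rule did not use, Fcnb and Chil3 were higher in spleen, with values given below, and 3 had no call. Lcn2, which encodes the specific granule protein lipocalin-2, was at 14356 ± 1657 CPM in spleen and 15457 ± 1306 in marrow. Cebpe, the transcription factor gene of the myelocyte stage, was at 502 ± 51.3 and 484 ± 26.1 CPM, and Cd177, a surface protein gene, at 863 ± 99.0 and 912 ± 60.6. The most abundant neutrophil transcripts, S100a8 and S100a9, which encode the subunits of calprotectin, differed by -0.01 ± 0.03 and -0.06 ± 0.03 on the log2 scale (SE) and were not called. Markers of the labelled stage were thus present in both tissues. Hashtag sums held 10 to 41 spleen cells (median 24) with 184716 to 732474 UMIs, and 61 to 392 marrow cells (median 168) with 663721 to 4424355 UMIs. Each spleen sum is therefore the less precise member of its pair. The 2 captures shared 8 cell barcodes over all cells and 0 among immature neutrophils.

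Across the 7766 genes with at least 100 UMIs summed over both tissues, 91 were higher and 101 lower in spleen (edgeR's quasi-likelihood test with the hashtag number as a block, Benjamini-Hochberg adjusted p under 0.05, which is what called means below). That is 2.47% of the genes tested, 1.17% in the higher and 1.3% in the lower direction. The median log2 fold change of all genes was 0.06. Leaving out hashtag 1 raised the higher genes to 170, and leaving out hashtag 3, 5, 6, 7 or 8 reduced them to 38, 48, 47, 55 and 56. The lower genes were reduced to 64, 61 and 65 without hashtag 3, 6 or 8. With TMM factors in place of total UMIs as library sizes, 69 genes were higher and 144 lower. With at least 5% of a cell's UMIs from Camp, Ngp and Ltf, 16 genes were higher and 6 lower, or 0.316% of 6962 tested. That fit had 7 pairs, since the spleen sum of hashtag 8 fell to 9 cells, so the threshold and the lost pair changed together.

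Genes of the late stages of neutrophil maturation were split between lower in spleen and not called. Of 19 measured genes of the gelatinase granule and mature neutrophil list, 8 fell, 1 rose and 10 were not called, and the list's median log2 fold change was -0.36 against 0.06 over all genes. Retnlg, which encodes a resistin-like secreted protein of maturing neutrophils, ranged from 422 to 3504 CPM in the spleen sums (median 2602) and from 6125 to 9007 in the marrow sums (median 7831). No spleen sum reached the lowest marrow sum. The log2 fold change was -1.77 ± 0.18 (SE), with an adjusted p of 1.72e-06, and it was lower in 8 of 8 hashtag pairs. Slpi, an inhibitor of neutrophil serine proteases, lay at 204 to 376 CPM in spleen (median 305) and 544 to 792 in marrow (median 642). Again the groups did not overlap, with a log2 fold change of -1.12 ± 0.10 and an adjusted p of 1.3e-07. Mmp9, the gelatinase that names the gelatinase granule, lay at 146 to 647 CPM in spleen (median 560) and 713 to 1115 in marrow (median 877). Its log2 fold change was -0.74 ± 0.14. Fpr1, a receptor for bacterial formyl peptides, fell by 1.06 on the log2 scale, and Stfa2l1, a stefin protease inhibitor gene, by 1.31. Both calls were lost at the 5% threshold (Fpr1 -0.72, adjusted p 0.0673; Stfa2l1 -0.24, 0.916) and in cells without cell cycle UMIs (-0.55, 0.274; -1.03, 0.171), and that of Fpr1 after thinning to 2000 UMIs per cell (-0.51, 0.477). The chemokine gene Ccl6 was lower as well, with a log2 fold change of -1.36 ± 0.30, but its call was lost without hashtag 3 (-1.21, adjusted p 0.0819). The gene of the list that rose, Hdc, encodes the enzyme that makes histamine. It stood at 182 to 330 CPM in spleen and 160 to 209 in marrow, with a log2 fold change of 0.40 ± 0.09, and its call was lost without hashtag 3 (adjusted p 0.084) or hashtag 6.

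**Figure D2:**
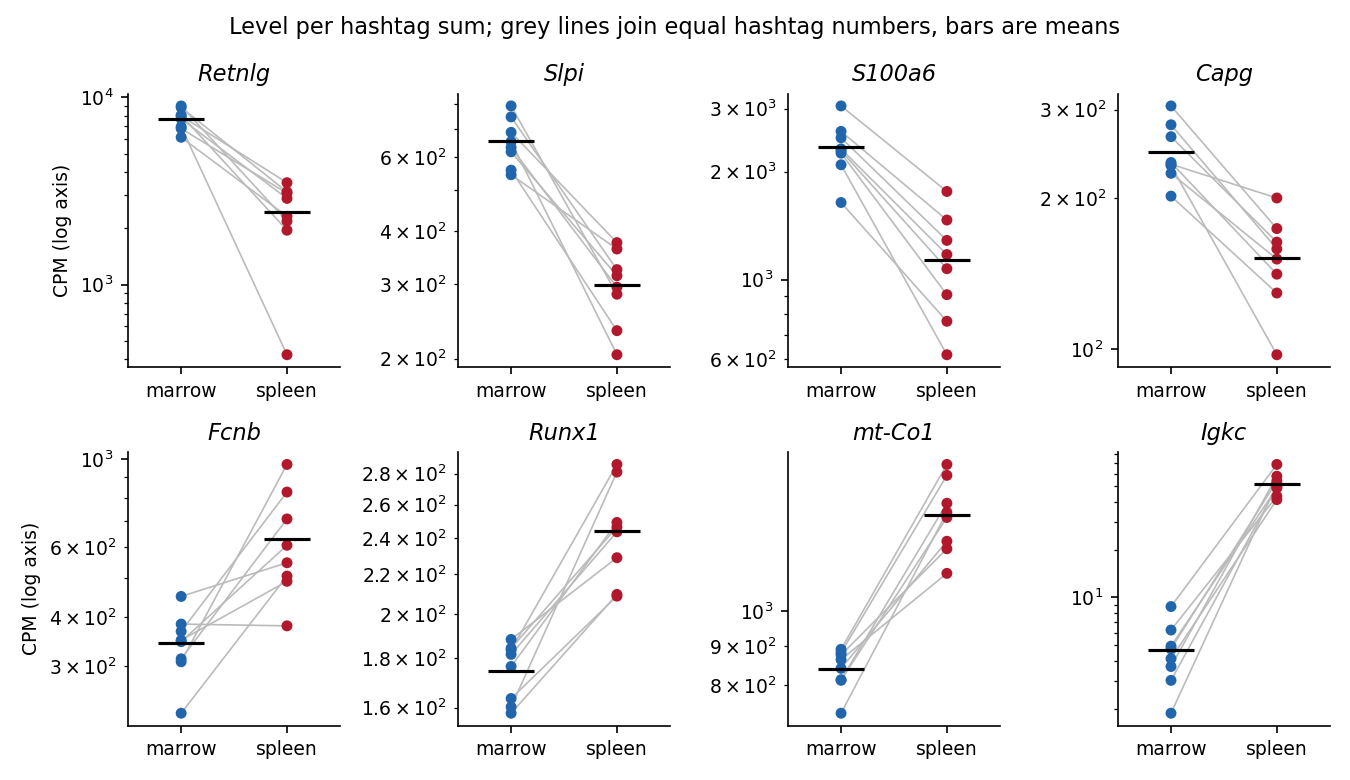
Level of 8 genes (y axes, CPM on log axes with their own ranges) in the 8 marrow (blue) and 8 spleen (red) hashtag sums of immature neutrophils, with grey lines between sums of the same hashtag number and black bars at the means. Retnlg, Slpi and Capg of spleen lie below all marrow sums, Runx1, mt-Co1 and Igkc above all of them, and the sums overlap for S100a6 and Fcnb.

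A set of genes with other roles fell beside them. S100a6, which encodes a calcium-binding protein, was at 617 to 1762 CPM in spleen (median 1124) and 1641 to 3052 in marrow (median 2301). A single pair of ranges overlapped narrowly, yet every pair of the same hashtag number was lower in spleen, with a log2 fold change of -1.09 ± 0.08 and an adjusted p of 1.45e-08. S100a11, of the same family, was at 2028 ± 263 CPM in spleen and 2744 ± 177 in marrow, a log2 fold change of -0.44 ± 0.07. Of 6 measured genes of the S100 list, 3 fell and 0 rose, and S100a10 is given with the sparse genes below. Capg, which encodes an actin filament capping protein, lay at 97.5 to 200 CPM in spleen and 202 to 305 in marrow, without overlap, with a log2 fold change of -0.70 ± 0.10. Dhrs9, a retinol dehydrogenase gene, was at 35.6 ± 11.3 CPM in spleen and 80.0 ± 11.7 in marrow, a log2 fold change of -1.11 ± 0.17. Ferritin heavy chain, Fth1, fell by 0.53 on the log2 scale, from 812 ± 57.1 CPM in marrow to 561 ± 76.7 in spleen, the single call among 9 measured genes of iron handling. Capg, Mmp9, Cdc25a, Hdc, Igf1r, mt-Co1 and mt-Atp6 were chosen after their values were seen.

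Granule genes of the earlier stages were split. Of 11 measured genes of the azurophil granule list, which is not limited to granule proteases, 3 rose and 0 fell, with a list median of 0.59. The 3 were Fcnb, Prss57 and Ms4a3. Fcnb, which encodes a ficolin stored in granules, lay at 380 to 970 CPM in spleen (median 577) and 229 to 450 in marrow (median 348). It was higher in 7 of 8 pairs, with a log2 fold change of 0.86 ± 0.13 and an adjusted p of 0.000272. In cells without cell cycle UMIs, a fit with fewer pairs, Fcnb was not called (0.279, adjusted p 0.817). Prss57, a serine protease gene of azurophil granules, was at 35.8 ± 14.9 CPM in spleen and 19.5 ± 4.65 in marrow, a log2 fold change of 0.90 ± 0.19. Ms4a3, a membrane protein gene of granulocyte precursors, was at 171 ± 79.7 and 104 ± 31.0 CPM, a log2 fold change of 0.72 ± 0.18. Both calls rested on single hashtags: Prss57 was not called without hashtag 3 or 5 (adjusted p up to 0.0822) and Ms4a3 not without 3, 5, 6 or 8 (up to 0.17). The proteases of the promyelocyte differed widely between the spleen sums. Elane, neutrophil elastase, ranged from 2.90 to 1895 CPM in spleen (median 459) and from 16.9 to 447 in marrow (median 272), and Prtn3, proteinase 3, from 27.5 to 1581 and from 23.5 to 418, with adjusted p of 0.669 and 0.306. Spleen sums of hashtags 1, 3, 5 and 8 held 872 CPM of Elane or more and the other 4 at most 44.9. The other promyelocyte markers, Mpo and Ctsg, had lower medians in spleen. Mpo had a median of 50.7 CPM in spleen and 59.9 in marrow, though its mean was higher in spleen (118 against 65.1). Ctsg had medians of 16.7 and 35.8 CPM and means of 28.5 and 46.1.

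Among 14 measured specific granule genes other than those of the rule, 2 rose and 1 fell, and the list median was -0.07. Chil3, which encodes a chitinase-like lectin, was at 6935 to 9438 CPM in spleen (median 8444) and 6018 to 8403 in marrow (median 7058). The ranges overlapped, but spleen was higher in 8 of 8 pairs, with a log2 fold change of 0.27 ± 0.05 and an adjusted p of 0.00383, and 0.0640 with TMM factors. Orm1, an acute phase glycoprotein gene, was at 300 ± 80.2 and 206 ± 24.4 CPM, a log2 fold change of 0.49 ± 0.12. Its call was lost without any of hashtags 1, 2, 6, 7 and 8 (adjusted p up to 0.117) and with TMM factors (0.0501). Mmp8, the neutrophil collagenase and the last of this group to be made, was at 37.9 to 1082 CPM in spleen (median 618) and 987 to 1527 in marrow (median 1295). It was lower in 8 of 8 pairs, by 1.18 on the log2 scale, with an adjusted p of 0.00377.

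The levels differed with the share of the 3 granule transcripts, so they were read within ranges of that share, as pooled values with no test. Equal share is not read as equal stage. In both tissues Retnlg was highest at 1 to 2%, and Elane, a promyelocyte gene, at 2 to 5%. Cells at 1 to 2% numbered 5 in spleen and 139 in marrow, at 2 to 5% 16 and 272, at 5 to 8% 48 and 311, and at 8% or more 128 and 914. Retnlg was highest at the low end and fell with the share in both tissues: 35856 CPM in spleen against 36411 in marrow at 1 to 2%, 10268 against 24376 at 2 to 5%, 4994 against 10566 at 5 to 8%, and 713 against 1340 at 8% or more. The low-share end of the marrow thus held many cells rich in Retnlg, and the spleen had few cells there. Beyond the lowest range, which held 5 spleen cells, spleen stayed lower at equal share. Slpi was likewise at 215 CPM in spleen and 373 in marrow at 8% or more, and at 480 and 846 at 5 to 8%. Chil3 was at 9510 and 9027 CPM at 8% or more and at 3615 and 1886 at 2 to 5%, where the 16 spleen cells also held 5076 CPM of Elane against 947 in marrow. At 1 to 2% the order was the opposite, with Elane at 0 in the 5 spleen cells and 646 CPM in marrow. Restricting the fit to cells of at least 5% kept the calls of Retnlg (-1.10, adjusted p 0.0274), Slpi (-0.86, 0.00157), S100a6 (-0.79, 0.00734) and Capg (-0.62, 0.0274). Under the same restriction Mmp8 (-0.68, 0.149), Mmp9 (-0.27, 0.397), Fth1 (-0.26, 0.356), Dhrs9 (-0.56, 0.487), Fcnb (0.57, 0.248) and Chil3 (0.12, 0.4) were not called. Of 46 called genes named in the text that this fit of 7 pairs could test, 11 kept their call, 34 lost it and Cxcr2 turned sign.

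**Figure D3:**
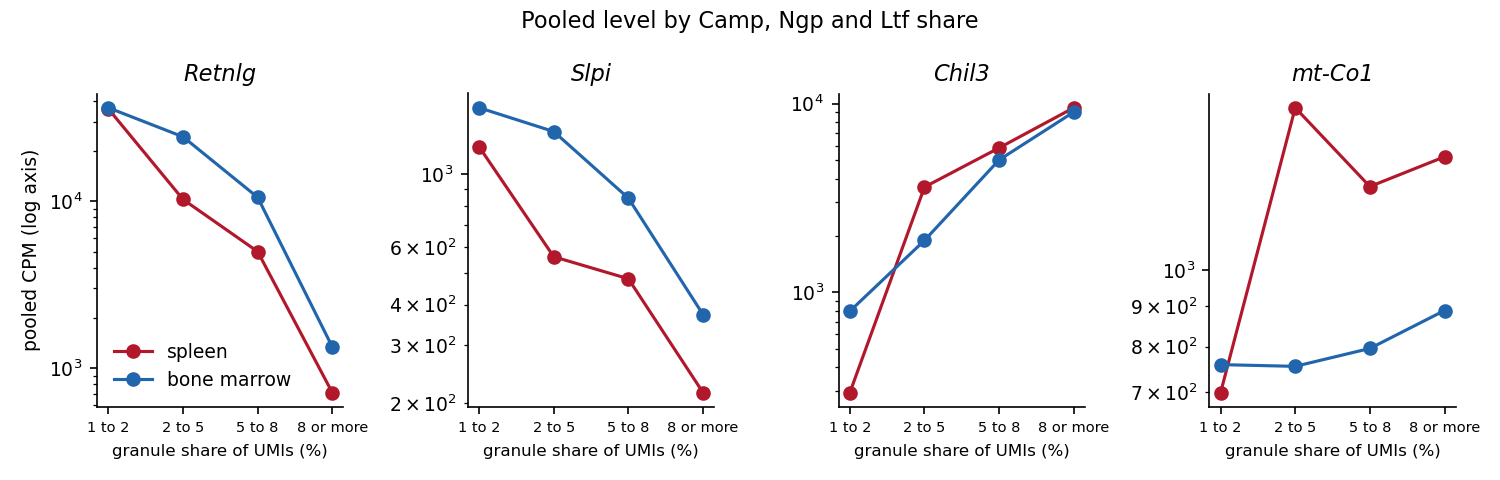
Pooled level of Retnlg, Slpi, Chil3 and mt-Co1 (y axes, CPM, log axes with their own ranges) in spleen (red) and marrow (blue) immature neutrophils split by the share of Camp, Ngp and Ltf among their UMIs (x axes). Retnlg and Slpi fall and Chil3 rises with that share in both tissues, and mt-Co1 of spleen lies above marrow from 2% on; the spleen points rest on 5, 16, 48 and 128 cells from left to right.

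Genes of DNA replication had a list median of 0.54 over 18 measured members, of which 1 rose and 0 fell. All 18 had a positive log2 fold change. Mcm5, a subunit of the replicative helicase, was at 21.7 to 81.1 CPM in spleen (median 35.3) and 14.7 to 32.9 in marrow (median 20.7), a log2 fold change of 0.98 ± 0.23. Its adjusted p was 0.017, and 0.104 without hashtag 3 (log2 fold change 0.92), and the call was lost without hashtag 7 too. Lig1, the ligase that joins replicated strands, had a log2 fold change of 0.73 and an adjusted p of 0.0929. Cdc25a, the phosphatase that opens the G1 to S transition, lay outside the list and was at 49.3 to 88.1 CPM in spleen (median 78.5) and 36.0 to 61.4 in marrow (median 40.7), a log2 fold change of 0.79 ± 0.16 with an adjusted p of 0.00665. The call of Cdc25a was lost at the 5% threshold (0.62, adjusted p 0.229) and after thinning to 2000 UMIs per cell (1.12, 0.149). Of 18 genes of the G2 and M list 0 were called, and the median was 0.20. Mki67, a marker of cycling cells, was at 369 ± 111 CPM in spleen and 272 ± 23.1 in marrow (adjusted p 0.0621), and Top2a, topoisomerase II alpha, at 383 ± 91.6 and 290 ± 27.9 (0.0877). Both were higher in 7 of 8 pairs. Clustered histone genes, 13 measured, gave 0 calls and a median of -0.07.

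At equal depth of 2000 UMIs per cell, with 4 spleen and 24 marrow cells left out as too shallow, 37.2% of cells per spleen sum and 25.3% per marrow sum (means of 8) held a UMI of the DNA replication list. The mean difference was 11.9 percentage points with an SD of 16.2 over pairs, higher in 6 of 8, and the exact sign-flip permutation test gave an adjusted p of 0.127 over 5 such values. For the G2 and M list the shares were 47.6% and 38.6%, with the same adjusted p of 0.127 in that permutation test. The share of cells with a UMI of a cycle gene was thus not shown to differ. Pooled over hashtags and without thinning the shares were 53.8% and 44.4% for DNA replication and 71.1% and 63.9% for G2 and M, at median depths of 13528 and 8979 UMIs. Granule-poor cells, defined below and mostly outside the cycle, held a UMI of the DNA replication list in 7.19% (spleen) and 9.88% (marrow) of thinned cells and of the G2 and M list in 30.3% and 22.8%, at median depths of 2817 and 3214 UMIs. Cks2 gave 87.7% and 69.0% of those G2 and M UMIs. Cells without cell cycle UMIs are, in this text, those with no UMI of either list among the 2000 drawn from each. Their full counts were fitted, and these can still hold UMIs of both lists. The fit over these cells held 38 higher and 27 lower genes, or 1.47% of 4407 tested. Of 38 called genes named in the text that it could test, 17 kept their call and 21 lost it. That fit used 5 of the 8 pairs, since the spleen sums of hashtags 2, 4 and 8 fell to 9, 6 and 3 cells.

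The sequences before the start sites are printed for Retnlg and Slpi, which fell in every hashtag pair, and for Fcnb and Cdc25a, which rose in 7 of 8 and 7 of 8. They are the 250 bases upstream of each gene's start from RefSeq, build GRCm38.p6, written 5′ to 3′ on the strand of the gene. Retnlg (ENSMUSG00000022651) has its window at chr16:48872358-48872607 on the plus strand, Slpi (ENSMUSG00000017002) at chr2:164356508-164356757 on the minus strand, Fcnb at chr2:28084879-28085128 on the minus strand and Cdc25a at chr9:109875329-109875578 on the plus strand. Capitals mark matches of TTGCNNAA, a form bound by C/EBP factors, which drive granulocyte genes, or of TTTCCCGC or TTTGGCGC, forms bound by E2F factors, which drive replication genes. Both strands were searched, and no match of the first overlapped a match of the others in these windows.
Retnlg: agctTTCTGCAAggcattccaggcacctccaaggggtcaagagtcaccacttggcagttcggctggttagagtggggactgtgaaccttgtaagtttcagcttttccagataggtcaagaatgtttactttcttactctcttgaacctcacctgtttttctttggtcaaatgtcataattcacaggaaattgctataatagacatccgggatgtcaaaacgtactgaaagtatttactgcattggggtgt
Slpi: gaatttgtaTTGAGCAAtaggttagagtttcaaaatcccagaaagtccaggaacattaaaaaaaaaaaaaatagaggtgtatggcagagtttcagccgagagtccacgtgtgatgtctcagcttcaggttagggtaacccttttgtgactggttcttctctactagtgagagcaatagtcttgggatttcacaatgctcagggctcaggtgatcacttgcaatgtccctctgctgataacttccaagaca
Fcnb: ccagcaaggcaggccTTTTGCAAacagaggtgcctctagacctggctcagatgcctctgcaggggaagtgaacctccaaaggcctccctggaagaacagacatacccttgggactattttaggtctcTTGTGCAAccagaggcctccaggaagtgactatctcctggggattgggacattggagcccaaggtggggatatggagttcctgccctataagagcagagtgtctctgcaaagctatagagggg
Cdc25a: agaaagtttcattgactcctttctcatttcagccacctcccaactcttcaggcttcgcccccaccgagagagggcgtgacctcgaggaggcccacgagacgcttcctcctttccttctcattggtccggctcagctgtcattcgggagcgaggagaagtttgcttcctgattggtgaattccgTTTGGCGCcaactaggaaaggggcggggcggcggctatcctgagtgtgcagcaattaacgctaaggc
Retnlg and Slpi each held 1 match of TTGCNNAA, 246 and 241 bases upstream of the start, and Fcnb held 2, at 235 and 123 bases. Cdc25a held 1 match of TTTGGCGC at 67 bases. TTGCNNAA was found in 15 of 77 promoters of genes that fell (19.5%), in 6 of 64 of genes that rose (9.38%), in 7.33% of the 6207 promoters of tested genes and in 9.55% of all 27025 in the table. The E2F forms were found in 9 of the 64 (14.1%), in 1 of the 77 (1.3%), in 3.29% of tested genes and in 1.35% of all. A match is a string in this window and shows no binding.

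Transcripts of the mitochondrial genome were higher in spleen. Of 12 measured, 10 rose and 0 fell, with a median of 0.72. This group was formed after the data were seen. mt-Co1, a subunit of cytochrome c oxidase, was at 1121 to 1556 CPM in spleen (median 1337) and 736 to 892 in marrow (median 853). The sums did not overlap, with a log2 fold change of 0.67 ± 0.07 and an adjusted p of 3.91e-06. mt-Atp6, a subunit of ATP synthase, had a log2 fold change of 0.89 ± 0.10, and both calls held at the 5% threshold (0.67 and 0.84). Mitochondrial UMIs were 0.446 to 0.706% of all UMIs in the spleen sums (median 0.513) and 0.251 to 0.361% in the marrow sums (median 0.335), higher in 8 of 8 pairs (exact sign-flip permutation test, p 0.0078, the smallest that 8 pairs can give, adjusted 0.0195). Within ranges of granule share mt-Co1 was at 1608 CPM in spleen and 755 in marrow at 2 to 5%, 1277 and 796 at 5 to 8%, and 1393 and 889 at 8% or more. Of 18 nuclear genes of the respiratory chain 0 were called, with a median of 0.08. Spleen cells were also the deeper: median UMIs per cell were 13505 against 9543 over all members, although over all cells of the tissue they were 3461 against 7999. Per sum the medians were 10368 to 18669 and 8470 to 9577, higher in 8 of 8 pairs (permutation test, adjusted p 0.0195). The part of depth and of the separate captures in the mitochondrial result was not tested. Ribosomal protein genes made up 4.77% of UMIs in spleen and 4.10% in marrow, higher in 5 of 8 pairs, with a permutation adjusted p of 0.172.

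Transcription factor genes of the granulocyte lineage mostly showed no call: of 15 measured, 1 rose and 1 fell, with a median of 0.06. Runx1, which acts early in the lineage, was at 209 to 286 CPM in spleen (median 245) and 158 to 188 in marrow (median 179), without overlap. Its log2 fold change was 0.48 ± 0.09 with an adjusted p of 0.00249, and it held at the 5% threshold (0.51, 0.0274). Zeb2, a repressor active in mature myeloid cells, was sparse, at 7.24 ± 8.56 CPM in spleen and 20.1 ± 13 in marrow. Its call was lost without hashtag 3, 4, 5 or 6 (adjusted p up to 0.0571), and its direction turned after thinning.

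Of 16 trafficking genes 2 fell and 0 rose, with a median of 0.01. Selplg, the ligand by which neutrophils roll on selectins, was at 69.8 ± 8.75 CPM in spleen and 102 ± 21.6 in marrow, a log2 fold change of -0.52 ± 0.11. Its call was lost at the 5% threshold (-0.219, adjusted p 0.629), in cells without cell cycle UMIs (-0.44, 0.361) and after thinning (-0.414, 0.575). Cxcr2, the receptor that draws mature neutrophils into blood, was at 103 to 200 CPM in spleen (median 144) and 155 to 230 in marrow (median 205), a log2 fold change of -0.47 ± 0.11. The call of Cxcr2 was lost without hashtag 6, 7 or 8 (adjusted p up to 0.0621), and at the 5% threshold the value was 0.063. Cxcr4, the receptor that holds neutrophils in marrow, had a log2 fold change of 0.24 (adjusted p 0.344).

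Interferon response genes had a median of -0.39 over 16 measured, with 3 that fell and 0 that rose. Slfn1 and Slfn4, interferon-inducible schlafen genes, were at 62.5 ± 24.2 and 67.1 ± 18.8 CPM in spleen and 112 ± 22.3 and 111 ± 12.3 in marrow. Their log2 fold changes were -0.79 ± 0.13 and -0.67 ± 0.13. Both calls were lost at the 5% threshold (Slfn1 -0.40, adjusted p 0.315; Slfn4 -0.46, 0.226) and in cells without cell cycle UMIs (-0.33, 0.539; -0.30, 0.603), and that of Slfn4 after thinning (-0.54, 0.337). Of 12 class I antigen presentation genes 2 rose and 0 fell, with a median of 0.20. H2-K1, a class I heavy chain gene whose reads can be shared with close relatives, was at 192 ± 73.5 and 141 ± 67.3 CPM, a log2 fold change of 0.51 ± 0.12. B2m, the light chain, was at 699 ± 132 and 564 ± 108 CPM, a log2 fold change of 0.31 ± 0.08, and was not called with TMM factors (adjusted p 0.0893). The call of H2-K1 was lost without hashtag 3, 5, 6 or 8 (adjusted p up to 0.168) and that of B2m without 2, 3, 5 or 6 (up to 0.0997).

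Single members moved in several effector lists. Txnip, a thioredoxin inhibitor, fell by 0.61 on the log2 scale among 13 oxidative burst and NET genes, and so did Padi4, the enzyme that citrullinates histones, by 0.42, though Padi4 was not called without any of 6 hashtags (adjusted p up to 0.182). Txnip was not called at the 5% threshold (adjusted p 0.287), in cells without cell cycle UMIs (0.316) or after thinning (0.33). Among 8 complement and Fc receptor genes C3 rose by 0.36, while Cfp, which encodes properdin, fell by 0.58 and Cd55, a complement inhibitor, by 0.82. C3 was not called without hashtag 6 (adjusted p 0.0683), Cfp not without 5, 6 or 7 (up to 0.0831) and Cd55 not without any of 6 hashtags (up to 0.12). Lta4h, the hydrolase that makes leukotriene B4, was the single call of 10 lipid genes, at 429 to 579 CPM in spleen (median 497) and 307 to 400 in marrow (median 366). Its sums did not overlap, with a log2 fold change of 0.45 ± 0.09. Ifitm2, an interferon-induced membrane protein gene, and Cd84, a signaling receptor of the SLAM family, fell by 0.52 and 0.62 among 6 measured genes of the suppressive and tumor-associated list. Their calls were lost at the 5% threshold (adjusted p 0.123 and 0.611) and after thinning (0.359 and 0.814). In cells without cell cycle UMIs they were lost too (0.124 and 0.322). Hsp90b1, a chaperone of the endoplasmic reticulum, rose by 0.39 among 18 genes of the unfolded protein list and Slc2a3, a glucose transporter, fell by 0.41 among 15 of glycolysis. Both of these calls were lost without most hashtags (6 and 7 of 8, adjusted p up to 0.194 and 0.174), and Hsp90b1 also with TMM factors (0.0715).

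Some of the larger increases were in genes outside the lists. Slc43a3, a purine nucleobase transporter gene, was at 42.2 ± 11 CPM in spleen and 20.1 ± 7.26 in marrow, a log2 fold change of 1.11 ± 0.20. It was not called at the 5% threshold (0.87, adjusted p 0.112). B4galt6, a galactosyltransferase of glycolipid synthesis, was at 49.1 ± 9.40 and 25.3 ± 3.11, without overlap, a log2 fold change of 0.98 ± 0.16 that held at the 5% threshold (0.84, adjusted p 0.043). Its call was lost in cells without cell cycle UMIs (0.98, adjusted p 0.213). Tnfsf13, which encodes the B cell factor APRIL, was at 28.9 ± 15.0 and 13.8 ± 1.65, a log2 fold change of 1.05 ± 0.25, and was not called without hashtag 3, 5, 6 or 8 (adjusted p up to 0.145). Igf1r, the receptor for insulin-like growth factor 1, was at 504 ± 74.4 and 383 ± 45.4, a log2 fold change of 0.39 ± 0.08. It kept its call at the 5% threshold (0.43, adjusted p 0.037) but not after thinning (0.355, 0.206).

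**Figure D4:**
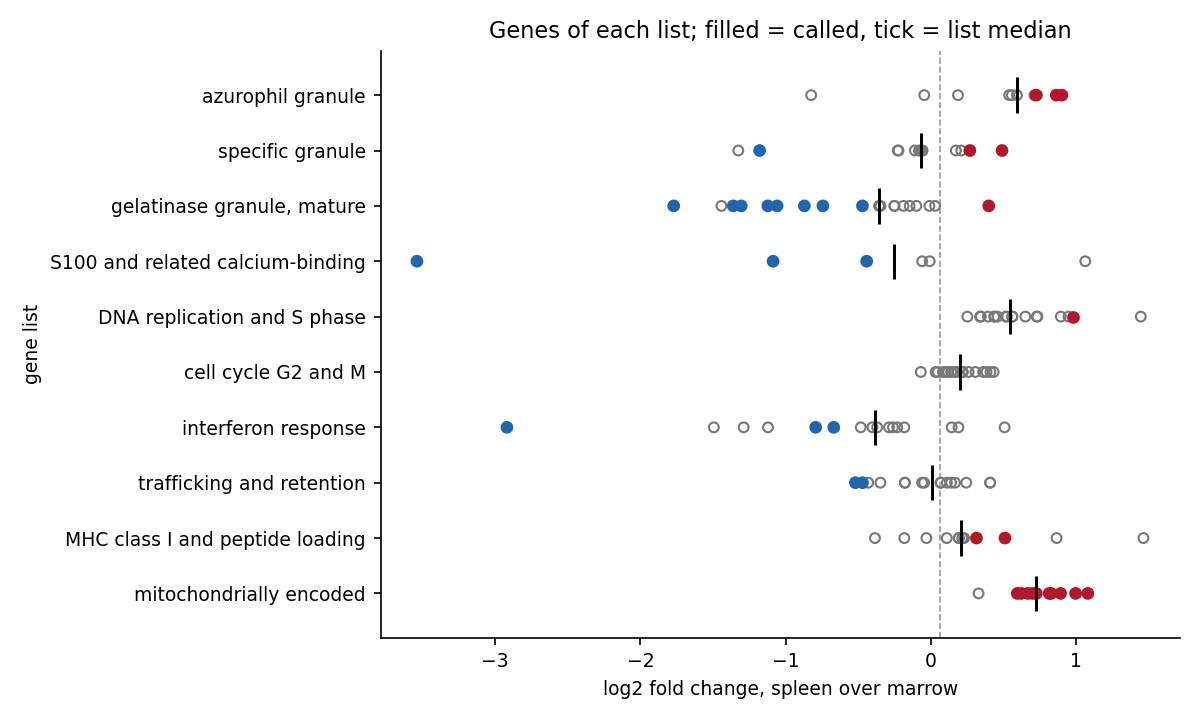
Log2 fold change of spleen over marrow (x axis) for the measured genes of 10 lists (y axis); filled points were called (red higher, blue lower), open points were not, black ticks are list medians and the dashed line is the median of all genes tested, 0.06. Called members lie to the left in the gelatinase and mature list (8 lower, 1 higher) and to the right among mitochondrially encoded genes (10 of 12).

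The other lists gave 0 calls in both directions: 6 measured inflammatory cytokine and chemokine genes (median -0.14), 11 of NF-kB feedback and survival (0.09), 12 of AP-1 and immediate early response (-0.17), 7 of JAK-STAT feedback (-0.07) and 14 of the proteasome (0.02).

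RNA of other cell types was looked for in the same sums. T or NK, eosinophil and basophil markers were at or near 0 in both tissues, with a summed level of at most 2.75, 0 and 0 CPM in spleen. Monocyte markers summed to 666 to 960 CPM in spleen and 774 to 950 in marrow, nearly all from Ly6c2, with Csf1r at 0 by the rule. Of the others, F13a1 had 1 UMI in spleen and 86 in marrow, and Ccr2 1 and 36. Macrophage markers were at 0 to 23.4 CPM in spleen, with C1qa and C1qb at 0, and 7.35 to 60.9 in marrow. Igkc, the immunoglobulin kappa constant gene of B cells, was at 41.3 to 68.7 CPM in spleen (median 50.6) and 1.87 to 8.77 in marrow (median 4.43), a log2 fold change of 3.48 ± 0.23. A UMI of Igkc was found in 52.9% of the spleen and 4.98% of the marrow cells, at median depths of 13505 and 9543 UMIs. In granule-poor neutrophils of the same captures it was found in 39.2% and 4.73%, at 2824 and 3255 UMIs, and after thinning to 2000 UMIs in 15.8% and 1.19% of immature and 28.8% and 2.46% of granule-poor cells. Before thinning the immature share was above that of granule-poor cells and at equal depth below it. The level is not read as expression in immature neutrophils, and its source was not tested. The defining B cell markers Cd79a and Ms4a1 had 1 UMI each in the spleen sums. Ighm and Jchain, also read as B or plasma cell markers, were present in spleen. Ighm had 154 UMIs in spleen and 700 in marrow, with means of 47.9 and 39.8 CPM. Jchain had 16 and 16 UMIs, with means of 5.48 and 1.09 CPM.

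Of 5 measured class II antigen presentation genes, 4 rose. H2-Ab1 was at 8.69 to 164 CPM in spleen and 0 to 2.47 in marrow, without overlap, a log2 fold change of 4.81 ± 0.52. Cd74, the invariant chain, was at 394 CPM in the spleen sum of hashtag 3 and at 0 to 20.3 in the other 7, and was higher than marrow in 7 of 8 pairs. That sum held 3 cells with 36, 169 and 273 UMIs of Cd74, H2-Aa, H2-Ab1 and H2-Eb1, while no other spleen cell with a hashtag exceeded 4. Without those cells, and without hashtag 3, both genes had fewer than 100 summed UMIs and were not tested. In granule-poor cells, described below, Cd74 had a log2 fold change of 4.37, and the difference between the classes of 0.50 was not called (adjusted p 0.762). Some genes were nearly missing from spleen. Pf4, a platelet chemokine gene, had 0 UMIs in spleen and 230 in marrow, at least 13.4-fold lower against a floor of 3 UMIs over the spleen sums, and a single marrow sum gave 69.6% of them. S100a10, the partner of annexin A2, had 3 and 224 UMIs, a ratio of 0.0766 (exact Poisson 95% interval 0.0157 to 0.227). A single marrow sum gave 42.9% of its marrow UMIs, and its call was lost at the 5% threshold (-3.27, adjusted p 0.0647). This interval and that of Meis1 cover counting error only, not the spread between sums. Meis1, a stem cell transcription factor gene, had 1 and 126 UMIs, a ratio of 0.0454 (0.00114 to 0.257), with 59.5% in a single marrow sum, and was not called without hashtag 2, 6 or 8 (adjusted p up to 0.0796). Cd34 was at 0 in spleen and had 48 UMIs in marrow. The other stem or progenitor markers were present in both tissues, Kit at 12.9 CPM in spleen and 17.6 in marrow and Cdk6 at 41.3 and 47.4. Ppbp, the other platelet marker, had 0 UMIs in both. Whether few progenitors or platelets among the marrow cells carried the transcripts nearly missing from spleen was not tested.

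Surface proteins were read by antibody barcodes, as shares of the UMIs of 18 surface antibodies, with 1 UMI added to each count. Of the 18, 5 were higher and 2 lower in spleen (exact sign-flip permutation test over 8 pairs, two-sided, adjusted p under 0.05), or 38.9%. A share of a fixed total makes the antibodies depend on each other, and spleen cells carried fewer antibody UMIs, with a median of 1228 against 1851 per cell. CD24, a glycosylated adhesion protein, was 7.22 to 12% of surface UMIs in spleen (median 9.78) and 16.3 to 25.2% in marrow (median 21.4). The groups did not overlap, with a mean log2 ratio of -1.14 and an SD of 0.42 over pairs (permutation p 0.0078, adjusted 0.0281). Median CD24 UMIs per cell were 91.5 and 365.5. Its transcript Cd24a was at 296 ± 50.3 CPM in spleen and 322 ± 18.3 in marrow, a log2 fold change of -0.14 that was not called (adjusted p 0.527). CXCR4 protein was 0.0590 to 0.460% of surface UMIs in spleen (median 0.114) and 0.204 to 0.416% in marrow (median 0.264). It was lower in 7 of 8 pairs, with a mean log2 ratio of -1.08 (permutation adjusted p 0.0402), at medians of 1 and 2 UMIs per cell.

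The Fc gamma receptors CD16/32, which bind antibody-coated particles, were 3.83 to 5.41% of surface UMIs in spleen (median 4.73) and 1.23 to 2.22% in marrow (median 1.76), without overlap. The mean log2 ratio was 1.39 with an SD of 0.30 (permutation adjusted p 0.0281), and median UMIs per cell were 52 and 31. CD49d, the alpha 4 integrin chain that holds immature cells to VCAM-1, was 1.96 to 2.71% in spleen (median 2.17) and 0.95 to 1.36% in marrow (median 1.17), a mean log2 ratio of 0.94. CD11b, the alpha chain of the complement receptor Mac-1, had a mean log2 ratio of 0.76, with shares of 3.61 to 9.70% and 2.64 to 4.55%. The stem cell factor receptor ckit had a ratio of 0.67, at a median of 3 UMIs per cell in both tissues. CD11a, the alpha chain of LFA-1, had 0.33, which turned to -0.28 on the unscaled UMIs per cell. On that unscaled measure CD16/32 (0.78), CD24 (-1.75) and CXCR4 (-1.69) were called, and CD49d (0.33), CD11b (0.15) and ckit (0.06) were not. The transcripts Fcgr3 (-0.06), Itga4 (0.41), Itgam (-0.06), Itgal (0.17) and Kit (-0.32) of these proteins had log2 fold changes without a call. CXCR2 protein, with a mean log2 ratio of 0.79 (higher in 7 of 8 pairs, permutation adjusted p 0.0625), and the Cxcr2 transcript, with -0.47, had opposite signs. Ly6C, CD44, CD106, CD14, CCR2, CD69, CD64, CD115 and MHCII were not called, and MHCII reached 10.9% of surface UMIs in the spleen sum of hashtag 3, which held the cells rich in class II transcripts. Without any 1 of hashtags 2, 3, 4, 6, 7 and 8 the adjusted p of the 7 antibodies was 0.0562 or more, where the smallest raw p of 7 pairs is 0.0156. Without hashtag 1, 4 antibodies were higher and 4 lower, and without hashtag 5, 6 and 1. Over all 8 leave-outs CD24 stayed between -1.24 and -1.06 and CD16/32 between 1.34 and 1.46.

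**Figure D5:**
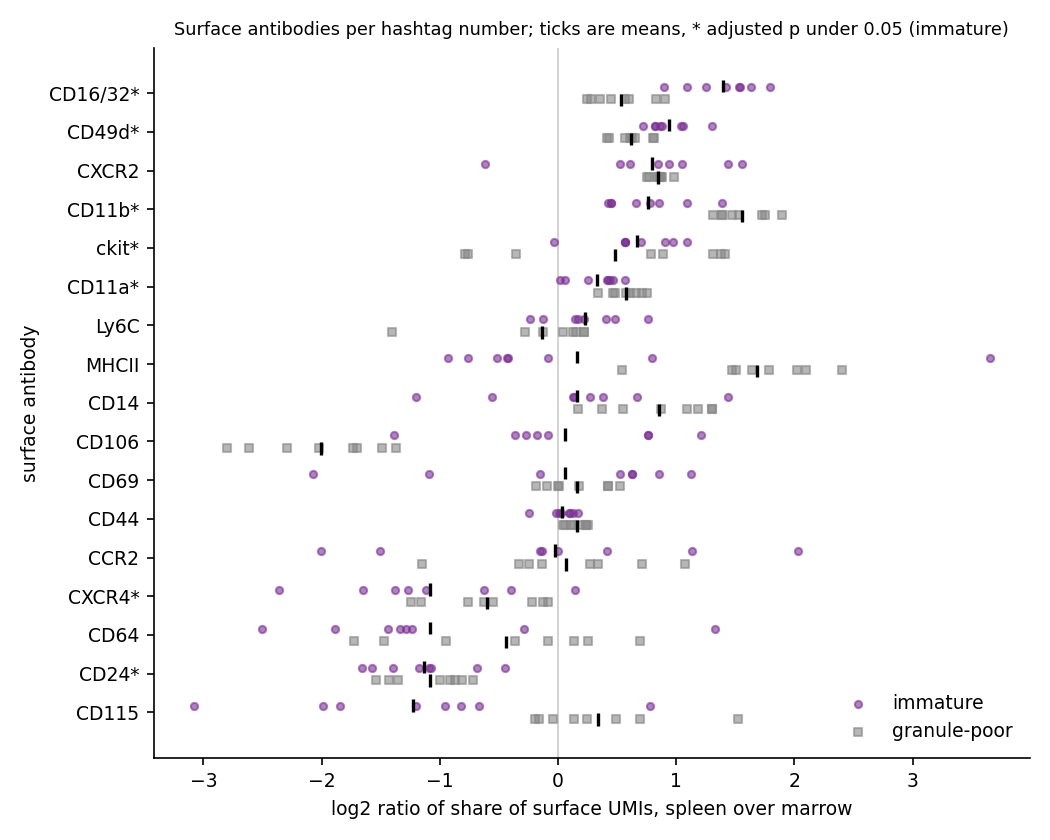
Log2 ratio of spleen over marrow in the share of surface antibody UMIs (x axis) for 17 of the 18 antibodies (y axis) in each of the 8 hashtag pairs, for immature neutrophils (purple circles) and granule-poor neutrophils (grey squares), with black ticks at the means and stars for an adjusted p under 0.05 in immature cells. CD24 lies left of 0 and CD16/32 and CD49d right of 0 in every pair of both classes; the mean of CD16/32 is 1.39 in immature and 0.53 in granule-poor cells.

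To see which differences were shared with later neutrophils of the same captures, the contrast was repeated in granule-poor cells. These held at least 1% of UMIs from S100a8 and S100a9 and no UMI of Csf1r. Camp, Ngp and Ltf gave under 0.1% of their UMIs, and Elane, Mpo and Prtn3 under 0.1%. This class was defined after the data were seen and held 2318 spleen and 802 marrow cells with a hashtag. Its sums held RNA of other cell types, unequally between tissues. Dendritic markers had a median of 405 CPM in spleen and 15.3 in marrow, and macrophage markers 213 and 91.1. Monocyte markers went the other way, at 102 and 499. Surface MHCII was higher in spleen in 8 of 8 pairs. The part of such RNA or cells in the class differences was not tested. The test of the difference between the contrasts was called for 16.4% of 7766 genes. Retnlg was lower in granule-poor cells too, at 9371 ± 1723 CPM in spleen and 36212 ± 3977 in marrow, a log2 fold change of -1.96, and the difference of 0.27 between the classes was not called (adjusted p 0.521). S100a6 was likewise lower in both, with -0.83 in granule-poor cells and a difference of -0.23 (0.244), as was Mmp8, with -1.86 and 0.75 (0.0568). Slpi differed between the classes: it was at 3128 ± 398 and 2952 ± 330 CPM in granule-poor cells, a log2 fold change of 0.08, and the difference of -1.19 had an adjusted p of 4.63e-09. Fth1 was higher in granule-poor cells of spleen (0.35) and lower in immature ones, a difference of -0.88 (2.81e-10), and Cxcr2 (0.38, difference -0.84, 1.02e-06) and Selplg (0.60, -1.09, 1.4e-08) showed the same change of sign. The mitochondrial transcript mt-Co1 had -0.12 in granule-poor cells, with a difference of 0.81 (0.00387). For mt-Atp6 the difference between the classes was not called. Runx1 rose by more in granule-poor cells, 1.15 against 0.48, a difference of -0.66 (0.00234). On the surface, CD24 was lower by a similar ratio in granule-poor cells, -1.08, with a difference of -0.06 and an SD of 0.34 over pairs (permutation adjusted p 0.834). The rise of CD16/32 was larger in immature cells by 0.86 and that of CD49d by 0.32, and the rise of CD11b was smaller by 0.80 (permutation adjusted p 0.0352 each, with the same sign in 8 of 8 pairs).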

How the data were processed

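RNA and antibody libraries of the spleen and bone marrow were used. Counts are the authors' raw UMI counts per gene and antibody as deposited, made with Cell Ranger 7.0.1, per the file headers, on the mm10 build, per the submitters' processing notes. Barcode suffixes were assigned to the libraries with the same number in the labels, a tie that no source states outright. All deposited cells were kept and no doublet caller was run; cells without a single hashtag (highest of 8, at least 20 UMIs and 3 times the second) stayed out of the sums. Members, gene lists and tests were chosen with earlier results of these data known.

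Counts were summed per tissue and hashtag and fitted with edgeR 4.0.16 in R 4.3.3 (quasi-likelihood, hashtag as a block, total UMIs as library size, genes with at least 100 summed UMIs), a script tested on simulated data. CPM values are computed here from the counts. Antibody shares and single values per sum were tested by an exact sign-flip permutation over 8 pairs (SciPy 1.17.1), two-sided, adjusted over 18 antibodies or 5 values. Difference between classes was an interaction term in a fit over both. Camp, Ngp, Ltf, Csf1r and the share of immature cells have no test, since the rule used them. Named genes came from a rule: of the called genes averaging 20 CPM or more, the 12 with the highest and the 12 with the lowest log2 fold change (leaving out ribosomal protein, mitochondrial, globin, antibody and unnamed genes), plus, called or not, up to 4 members of each list, those ranking first by adjusted p; those printed were picked with their values seen. 1 gene and 1 antibody are not reported here. Alternatives covered scaling (TMM, DESeq2 1.42.0, per-cell means in limma 3.58.1), filters, thresholds, depth and each hashtag left out. Sums held 184716 to 732474 UMIs in spleen and 663721 to 4424355 in marrow, which limits spleen precision.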

Additional observations from a re-analysis of the deposited data

Results flagged for a closer look

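Within the 8 sums of a tissue, a value far from the other 7 by Dixon's criterion (gap over range above the 95% critical value) was found in 23 of 188 groups examined. For independent, normal values chance flags about 1 in 20. Antibody shares of a common total and counts near 0 do not meet these conditions, so no excess is read from the 23. In the spleen sum of hashtag 8, the smallest with 10 cells, Mmp9 was low at 146 CPM and Ccl6 high at 103. The spleen sum of hashtag 3 was high for Cd74 at 394, H2-Ab1 at 164 and Zeb2 at 27.0 CPM and for surface MHCII at 10.9% of surface UMIs. In the spleen sum of hashtag 1 Top2a was low at 171 CPM and Meis1 stood at 2.90 with the other sums at 0. The same sum was high for 7 surface antibodies: ckit at 0.95%, CD115 at 0.124%, CD69 at 0.147%, CD64 at 0.477%, CD14 at 0.385%, CCR2 at 0.418% and CXCR4 at 0.460% of surface UMIs. Without hashtag 1 the mean log2 ratio of ckit was 0.61 (permutation adjusted p 0.0625) and that of CXCR4 -1.26 (0.0352).

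Among the marrow sums, hashtag 1 was high for Cd74 at 6.03 CPM, CD115 at 0.0723% and CXCR4 at 0.416%, and low for Lta4h at 307 CPM. Marrow hashtag 2 was high for Cdc25a at 61.4 CPM, hashtag 4 low for Cxcr2 at 155 CPM, hashtag 5 high for surface CXCR2 at 0.310% and hashtag 7 low for CD106 at 0.583%.

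The spleen against marrow contrast differed between immature and granule-poor neutrophils for 32 of 64 genes named in the text, leaving out those that define either class, and for 6 of 18 antibodies. Over all 7766 genes the share was 16.4%. The named genes were picked with their contrast in immature cells seen, which is part of this difference, so no excess is read from their share. The difference of the log2 fold changes, immature minus granule-poor, was negative for Zeb2 (-2.11), Kit (-2.0), Itga4 (-1.58), Cxcr4 (-1.34), Txnip (-1.23), Stfa2l1 (-1.23), Dhrs9 (-1.22), Slpi (-1.19), Ifitm2 (-1.11), Selplg (-1.09), Itgal (-1.02), Ccl6 (-1.01), Slfn1 (-0.93), Cd84 (-0.92), Fth1 (-0.88), Cxcr2 (-0.84), Hdc (-0.79), Igf1r (-0.67), Runx1 (-0.66), B2m (-0.53) and Itgam (-0.34). It was positive for Ms4a3 (3.56), Chil3 (3.19), Tnfsf13 (2.71), Cd177 (2.15), Cd55 (1.56), Lcn2 (1.29), B4galt6 (1.05), Cebpe (1.00), Capg (0.90), mt-Co1 (0.81) and C3 (0.63). On the surface it was -1.56 for CD115, -0.80 for CD11b and -0.24 for CD11a, and 0.32 for CD49d, 0.86 for CD16/32 and 2.06 for CD106. Ms4a3, Tnfsf13, Cd55 and Kit were too sparse in granule-poor cells for a fit of that class alone. Chil3 is one of the genes that the granule-poor class holds at low level, 28.5 CPM in spleen and 216 in marrow.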

How the results depend on the processing

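Against 91 higher and 101 lower genes, counts over 1.5 times apart were 52 higher with DESeq2, 211 and 154 with no low-count filter, 16 and 6 at the 5% granule threshold (7 pairs), 48 lower at 2%, 157 lower at 0.5%, 52 and 25 after thinning to 2000 UMIs, 38 and 27 in cells without cell cycle UMIs (5 pairs), and 18 and 26 with at least 20 cells per sum (5 pairs). Leaving out each hashtag number gave 38 to 170 higher and 61 to 108 lower genes. Of the 192 genes called, 19 were among the 22 called at 5%. Of 50 printed genes that were called, 32 kept their call in every fit without a single hashtag number that tested them. Cd74, H2-Ab1 and Pf4 are counted among the 32 but were not tested without hashtag 3. Without the cells rich in MHC class II, an alternative chosen after the data were seen, 88 genes were higher and 105 lower.

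The hashtags share only a number: the correlation of same-numbered deviations was -0.0200 to 0.138, and 2 of 8 spleen sums matched their own number best. Without the replicate block 102 genes were higher and 108 lower, and the calls of Zeb2 (adjusted p 0.212), H2-K1 (0.203), B2m (0.131), Pf4 (0.247) and Meis1 (0.124) were lost.

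Direction turned for Prtn3 without cell cycle UMIs (-3.01), Zeb2 after thinning (0.20) and Cxcr2 at 5% (0.063). Of 5 higher and 2 lower antibodies, the mean centred log ratio gave 8 and 5, unscaled UMIs per cell 1 and 7, and the 5% threshold 1 lower; leaving out each hashtag number gave 0 to 6 and 0 to 4. Unscaled, Ly6C (-0.38), CD11a (-0.28) and CD44 (-0.58) turned lower, and with the centred ratio CD44 (-0.29) and CD106 (-1.13) turned lower and CCR2 higher (0.26). Where the scale or the number of cells and genes does not itself change the result, the cause was not tested. Without each hashtag number in turn, the spleen minus marrow difference ranged from 0.202 to 0.237 for mitochondrial percent, 4287 to 5494 for median UMIs, 8.02 to 15.8 and 4.83 to 11.3 points for the 2 cycle shares and 0.496 to 0.984 for ribosomal percent, and none of these changed its call. The planned fit over cells with no UMI of immunoglobulin, hemoglobin, Cd74 or MHC class II genes was not run, since no spleen sum reached 10 cells. Depth limits the spleen side, where 3 UMIs are the floor behind a value of 0.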
